A study of Mus musculus with 29 samples.

Results

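Of 11 mouse liver libraries taken at 5 months of age, 3 had a high level of Ly6d, which encodes a membrane-anchored protein of the Ly6 family. These 3, numbered TBT 4, VEH 4 and VEH 6, each had more than 50 CPM of Ly6d (CPM are read counts per gene divided by the library total and put on a common scale by the trimmed mean of M-values over all 29 libraries of the series). They are described here beside the 7 livers of the same age with less than 10 CPM of Ly6d and less than 1 CPM of Sis, an intestinal brush-border enzyme gene. The 7 are TBT 3, 5 and 6 and VEH 1, 2, 3 and 5, and are called typical livers. Where the 3 Ly6d-high livers are given as a group, their values stand in the order TBT 4, VEH 4 and VEH 6. The remaining library, TBT 2, had 2.52 CPM of Ly6d but 668 CPM of Sis and was left out. Just inside the Ly6d threshold stood VEH 4 with 72.9 CPM, and just outside it VEH 3 with 8.09 CPM.

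TBT marks male offspring of dams that drank water with tributyltin, an organotin compound, while pregnant and nursing, and VEH marks the other arm, read here as vehicle. Neither strain nor genotype is given in the sources used here, and the labels do not say that each library came from its own animal or litter, so p-values measure the spread between samples. At 10 months the series holds 7 adenomas, which all carry the TBT label, 5 TBT livers and 6 VEH livers. Tumour and exposure therefore cannot be told apart where adenoma is set against VEH liver, and the main 10-month comparison is with TBT liver. The 3 Ly6d-high livers were chosen by a value in the same count table, so every difference between them and the 7 typical livers is given as a description with no test. Tests were run on the 10-month libraries, the exposure label and the depth.

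The mature hepatocyte secretes plasma proteins and clears steroids, bile acids and foreign compounds. In rodents much of this work differs between the sexes because pulsatile growth hormone in males maintains one set of liver genes, among them the major urinary proteins, and represses another. It also differs along the lobule, where hepatocytes around the central vein make glutamine and carry most cytochrome P450, and those near the portal tract make urea and glucose. Hepatocellular adenoma is a benign growth of hepatocytes that commonly loses parts of this programme, enters the cell cycle and holds other macrophages and stroma than the liver around it.

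The 3 Ly6d-high livers held 7751823 counts in TBT 4, 21729628 in VEH 4 and 19434877 in VEH 6, and the typical livers 7513448 to 33704303. Mean totals were 16310000 counts in the 3 and 18500000 in the 7, a difference within the spread (exact permutation test, two-sided, 120 splits, p = 0.733). By exposure label, 1 of 5 TBT and 2 of 6 VEH livers were Ly6d-high (Fisher's exact test, two-sided, p = 1), a design whose smallest possible p is 0.0606. TBT 4 stood apart by Lars2, the mitochondrial leucyl-tRNA synthetase gene, at 26920 CPM, against 8.34 and 67.3 CPM in VEH 4 and VEH 6 and 8.86 to 702 CPM (median 20.3) in the typical livers. TBT 2 held 4433 CPM over 23 intestinal epithelium markers, against 266 to 536 CPM in the 3 Ly6d-high livers and 269.6 to 437 CPM in the typical ones, and 401 CPM of Alpi, an intestinal alkaline phosphatase gene. Albumin and 14 other mature hepatocyte genes summed to 147100, 160000 and 126200 CPM in TBT 4, VEH 4 and VEH 6, against 151300 to 214000 CPM in the typical livers. Y-linked genes (4 in the table) had their lowest sum of the 11 livers in TBT 4, at 127.7 CPM. Among the 71 pairs of libraries compared, which are not all pairs of the series, 0 were near-duplicates (lowest chi-square per degree of freedom 18.6).

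The Ly6d-high livers differed from typical livers in many genes, and mostly upward. Of 12779 genes that passed a filter on low counts, 712 (5.57%) were higher in all 3 than in any of the 7 typical livers with medians at least 2-fold apart on CPM + 0.5, and 197 (1.54%) were lower in the same sense. With no minimum ratio the counts were 1237 (9.68%) and 893 (6.99%). The 2-fold rule is the one used for every 5-month count that follows, and the background for a list of genes is thus 5.57% higher and 1.54% lower. Scaling moved the split. TMM put 78.3% of the differing genes on the higher side, median-of-ratios factors 80.2% (743 higher, 184 lower) and plain library totals 89.3% (978 higher, 117 lower). The median log2 ratio over all filtered genes was -0.036 under TMM and 0.19 under plain totals. Without TBT 4, the library with high Lars2, 696 genes were higher and 213 lower. With the VEH livers alone, VEH 4 and 6 against VEH 1, 2, 3 and 5, 827 were higher and 250 lower, and 611 and 164 of these were among the 712 and 197. The no-overlap rule is easier to meet with fewer libraries, so such counts are not like for like with 712 and 197. The same holds for the list counts given below without a library.

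The label adenoma-like was set beside the 10-month adenomas, which are other libraries than the 11 chosen from. The choice was made with earlier results of these data known, and Ly6d is itself higher in adenoma, so the adenomas are no independent check of the label. In edgeR's quasi-likelihood test with Benjamini-Hochberg adjustment, 3223 of 13474 genes (23.9%) were higher and 2803 (20.8%) lower in the 7 adenomas than in the 5 TBT livers. The background for a list of genes in adenoma over TBT liver is thus 23.9% higher and 20.8% lower. Against the 6 VEH livers the counts were 3755 (27.9%) and 3335 (24.8%). Of the 710 genes higher in the Ly6d-high livers that could be tested at 10 months, 677 (95.4%) were higher in adenoma than in TBT liver, where 22.6% of all 12742 genes tested at both ages were, and 0 were lower. Of the 197 lower genes, 172 (87.3%) were lower in adenoma, against 21.8% of all genes, and 0 were higher. The shared genes were 23.5% of the 2879 higher and 6.19% of the 2780 lower in adenoma, and the other genes called in adenoma did not meet the 5-month rule. Against VEH liver 687 (96.8%) and 179 (90.9%) went the same way, with 0 opposite in either direction. These shares describe genes chosen by their 5-month values and carry no p of their own.

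**Figure D1:**
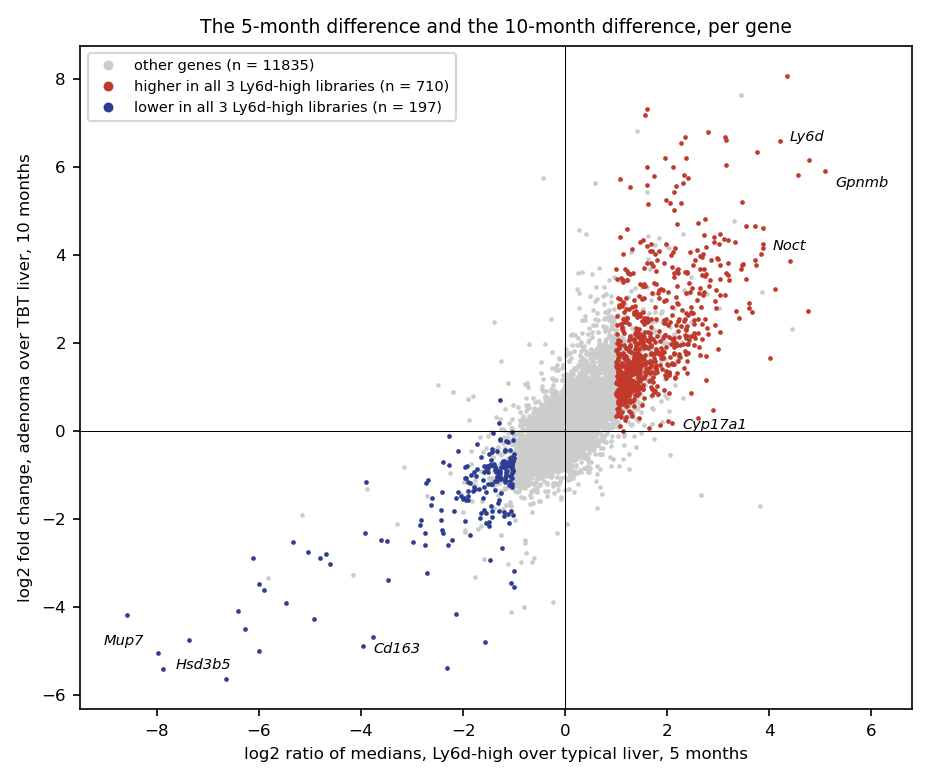
Each point is 1 of the 12742 genes tested at both ages. The horizontal axis is the log2 ratio of medians, Ly6d-high over typical liver at 5 months, and the vertical axis is edgeR's log2 fold change, adenoma over TBT liver at 10 months. Of the 710 genes higher at 5 months (red) 677 passed the 10-month test on the higher side, and of the 197 lower genes (blue) 172 passed on the lower side.

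On the first principal component of log2(CPM + 1), which held 43.8% of the variance of 11008 genes, the 3 Ly6d-high livers lay at 27.2 to 47.4 and the adenomas at 12.9 to 64, while the typical livers lay at -27.8 to -8.67. The 10-month livers lay at -25.1 to -15.5 (TBT) and -28.7 to -22.8 (VEH), so on this component the Ly6d-high livers shared the adenomas' range and no other set did. TBT 2 was at -5.06, nearer the typical livers. On the second component (11.3% of the variance) TBT 4, VEH 4 and VEH 6 lay at -17.2, -22.2 and -30.9, within the typical range of -34.1 to -2.51. The adenomas lay at 1.05 to 11.6 there, apart from the Ly6d-high livers. These positions use all genes, including those that chose the 3, and are a description.

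**Figure D2:**
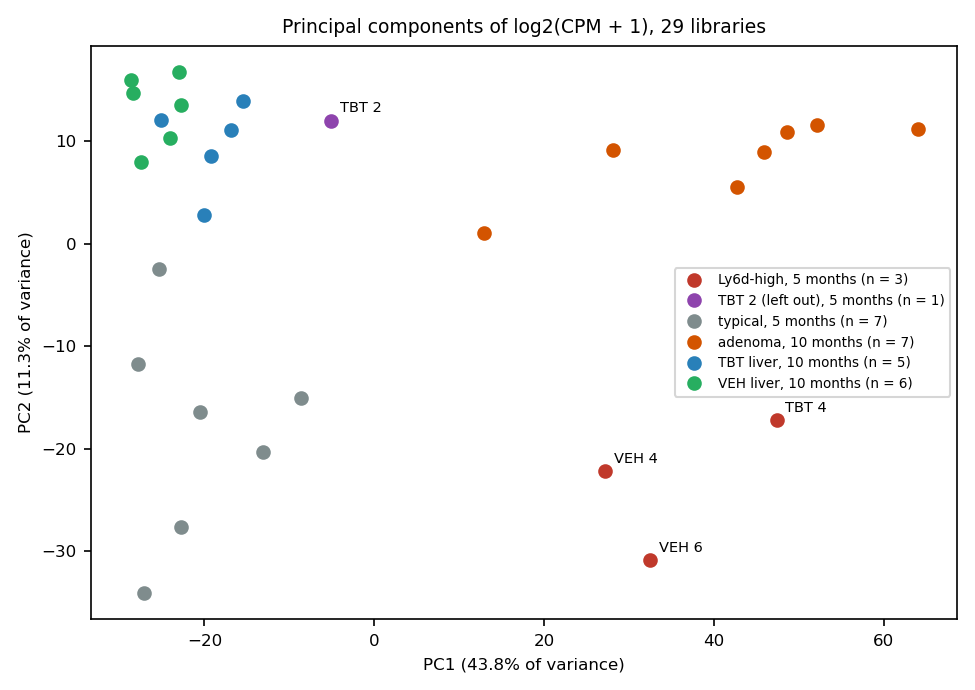
First and second principal components of the 29 libraries, in units of the component score, with each point a library coloured by set. The 3 Ly6d-high livers and the 7 adenomas lie on the right, from 12.9 to 64 on the first component, and every other library lies at or left of -5.06. On the second component the 3 Ly6d-high livers lie at -30.9 to -17.2, within the typical range, and the adenomas at 1.05 to 11.6.

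Ly6d (chr15:74762056-74763620, GRCm38, GENCODE M21) had 95.0, 72.9 and 123 CPM in TBT 4, VEH 4 and VEH 6, against 1.18 to 8.09 CPM (median 4.68) in the 7 typical livers, a ratio of medians of 18.4. The gap between the sets is the choice itself. In the adenomas it had 16.9 to 436 CPM (median 226), against 1.01 to 4.16 CPM (median 1.56) in TBT livers and 0.750 to 1.94 CPM (median 0.914) in VEH livers. All 7 adenomas were above every TBT liver (adenoma over TBT liver, log2 6.59 ± 0.69, SE, adjusted p = 4.28e-06). Gpnmb (chr6:49036546-49070929), a transmembrane glycoprotein known from lipid-laden macrophages, had 36.9, 26.7 and 87.3 CPM in TBT 4, VEH 4 and VEH 6, against 0.114 to 1.43 CPM (median 0.601) in the typical livers. VEH 6 was the highest, and the least of the 3 was far above the highest typical liver. It had 10.2 to 48.1 CPM (median 26.99) in adenomas, against 0.203 to 0.932 CPM (median 0.458) in TBT livers and 0.418 to 1.39 CPM (median 0.661) in VEH livers (adenoma over TBT liver, log2 5.92 ± 0.51, SE, adjusted p = 5.19e-07). Hsd3b5 (chr3:98618634-98630252), a steroid-metabolising enzyme that mouse liver makes in males, had 0.544, 1.44 and 0.462 CPM in TBT 4, VEH 4 and VEH 6, against 134 to 336 CPM (median 245) in the typical livers, which put its median 236-fold lower. The adenomas had 0.383 to 14.3 CPM (median 2.96), against 79.4 to 374 CPM (median 254) in TBT livers and 175 to 308 CPM (median 222) in VEH livers (adenoma over TBT liver, log2 -5.41 ± 0.67, SE, adjusted p = 1.59e-05). Besides Ly6d, which was fixed by the choice, Gpnmb and Hsd3b5 did not overlap between the Ly6d-high and typical livers. All 3 markers went the same way in the adenomas.

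**Figure D3:**
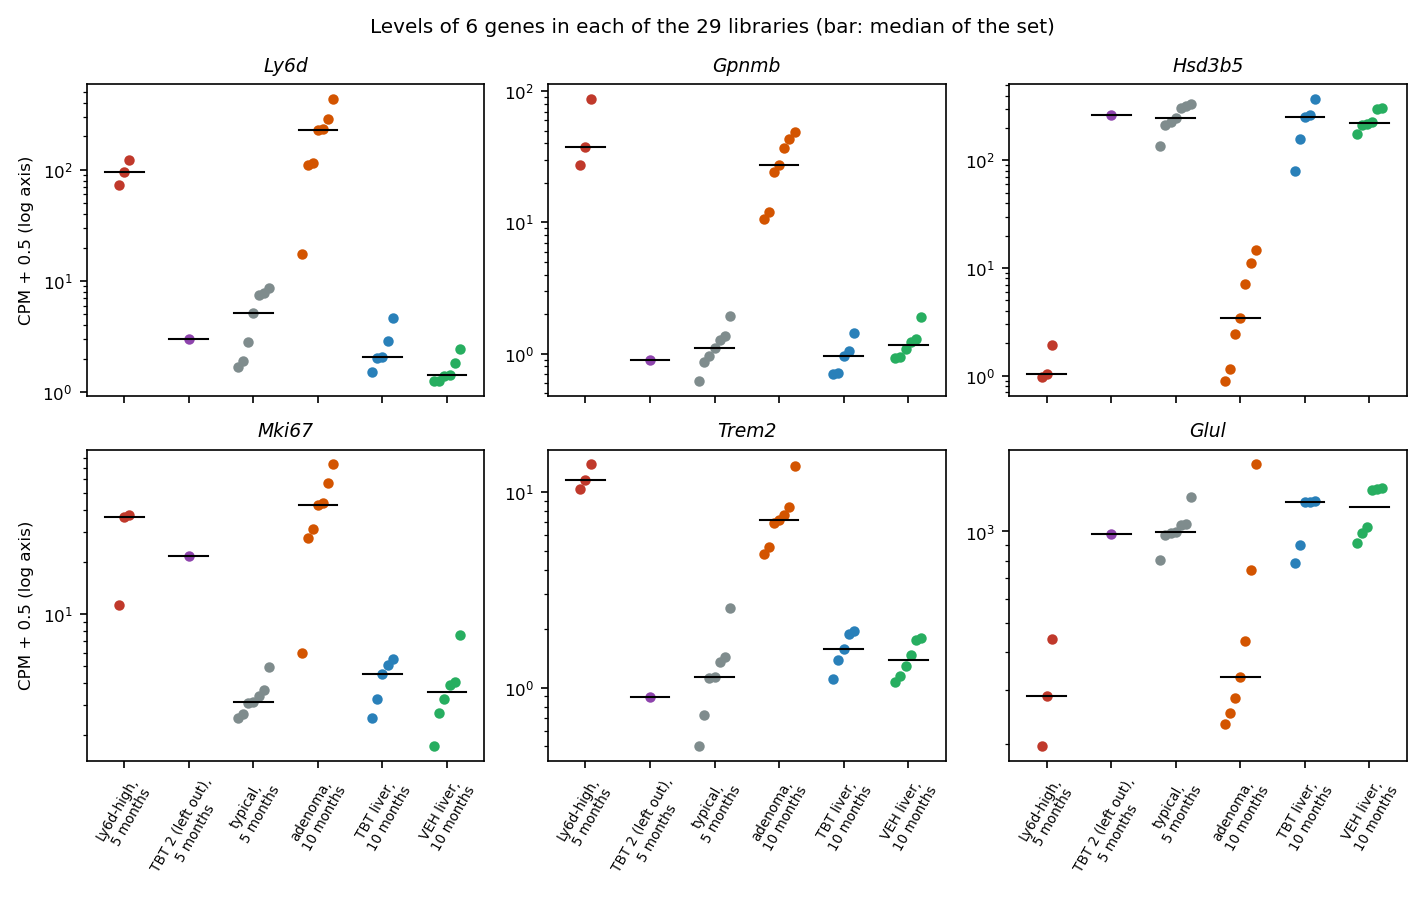
CPM + 0.5 on log axes for 6 genes in each of the 29 libraries, by set, with a bar at the median of the set. Ly6d is above 50 CPM in the 3 Ly6d-high livers by choice, Hsd3b5 is at or below 1.44 CPM in all 3, and Mki67 of VEH 6 (10.7 CPM) is the lowest of the 3.

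Of 29 genes of a liver tumour and oncofetal list, 14 were higher and 1 was lower in the Ly6d-high livers, with a list median log2 ratio of 1.70, against -0.036 over all filtered genes. The 14 include Ly6d, whose call was fixed by the choice of the livers, and the marker Gpnmb. List medians here are over every member in the table, those below the filter included. Members below the filter count in a list's size but could not be called. At 10 months 24 of the 27 members tested were higher and 2 lower in adenoma than in TBT liver. Prom1, a membrane protein of progenitor and biliary cells, had 19.1, 5.14 and 24.2 CPM in TBT 4, VEH 4 and VEH 6, against 0.547 to 2.43 CPM (median 1.11) in the typical livers. Tspan8, a tetraspanin of epithelial tumours, had 19.5, 3.20 and 9.64 CPM in the Ly6d-high livers, against 0.309 to 1.49 CPM (median 0.607) in typical livers. VEH 4 was the lowest of the 3 for both. Afp, the fetal albumin-like protein used as a marker of liver cancer, overlapped at 5 months, with 12.9, 1.67 and 1.69 CPM in TBT 4, VEH 4 and VEH 6, against 0.824 to 3.61 CPM (median 2.39) in the typical livers. TBT 4 and the left-out TBT 2, at 4.645 CPM, were above every typical liver. In the adenomas Afp had 3.52 to 25.6 CPM (median 5.09), against 1.89 to 2.79 CPM (median 2.37) in TBT livers (adenoma over TBT liver, log2 1.98 ± 0.45, SE, adjusted p = 0.00171). Afp was thus above the typical range in 1 of the 3 livers, while Prom1 and Tspan8 were above it in all 3. The left-out TBT 2 was above it for these 2 genes as well, with 11.3 CPM of Prom1 and 18.5 CPM of Tspan8, within the range of the 3. The single lower member was Fabp5, a fatty-acid-binding protein.

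Cyp2a4 and Gstm3 were among the 15 genes with the largest higher ratios. Cyp2a4, a steroid hydroxylase that is more abundant in female mouse liver, had 224, 69.2 and 53.3 CPM in TBT 4, VEH 4 and VEH 6, against 1.75 to 3.76 CPM (median 2.02) in the typical livers, a 27.6-fold ratio of medians, and was higher in adenoma (adenoma over TBT liver, log2 6.17 ± 0.85, SE, adjusted p = 3.62e-05). Gstm3, a glutathione transferase, had 219, 168 and 78.8 CPM in the Ly6d-high livers, against 7.77 to 26.4 CPM (median 11.0) in typical livers (adenoma over TBT liver, log2 4.61 ± 0.59, SE, adjusted p = 2.00e-05). For both, TBT 4 was the highest of the 3 and the sets did not overlap. Of the 50-base windows of their transcripts, 38.0% for Cyp2a4 and 28.8% for Gstm3 also lie in another gene's transcript, so their values are uncertain. Noct, a deadenylase-like enzyme with a daily rhythm in liver, had 57.1, 95.3 and 68.3 CPM in TBT 4, VEH 4 and VEH 6, against 1.70 to 29.7 CPM (median 4.20) in the typical livers. Its adenoma difference was among the clearest of these genes (adenoma over TBT liver, log2 4.25 ± 0.28, SE, adjusted p = 2.96e-08). Gucy2c, the guanylate cyclase receptor of intestinal epithelium, had 32.6, 23.0 and 50.5 CPM in the Ly6d-high livers, against 0.314 to 10.4 CPM (median 0.721) in typical livers. The left-out TBT 2 had 36.9 CPM, within the range of the 3, and the typical maximum belonged to TBT 3. Shc2, an adaptor of receptor tyrosine kinases, had 18.7, 10.5 and 22.4 CPM in the Ly6d-high livers, against 0 to 3.08 CPM (median 0.309) in typical livers, and was higher in every adenoma (adenoma over TBT liver, log2 5.81 ± 0.58, SE, adjusted p = 2.36e-06). Lrtm2, a leucine-rich repeat membrane protein gene, was close to absent from typical liver, with 9.25, 9.68 and 16.4 CPM in the Ly6d-high livers, against 0 to 1.37 CPM (median 0) in typical livers, and gave an adenoma difference of log2 8.08 ± 0.62, SE, adjusted p = 1.49e-07. Bmper, which encodes a secreted protein that binds bone morphogenetic proteins, had 7.62, 20.4 and 29.9 CPM in the Ly6d-high livers, against 0.546 to 2.57 CPM (median 0.706) in typical livers (adenoma over TBT liver, log2 3.23 ± 0.54, SE, adjusted p = 1.49e-04). Mmp7, a secreted metalloproteinase, had 8.92, 1.76 and 6.82 CPM in the Ly6d-high livers, against 0 to 0.109 CPM (median 0) in typical livers (adenoma over TBT liver, log2 4.16 ± 0.45, SE, adjusted p = 2.88e-06). Each of these genes was higher in all 3 livers, although the order of the 3 changed from gene to gene.

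**Figure D4:**
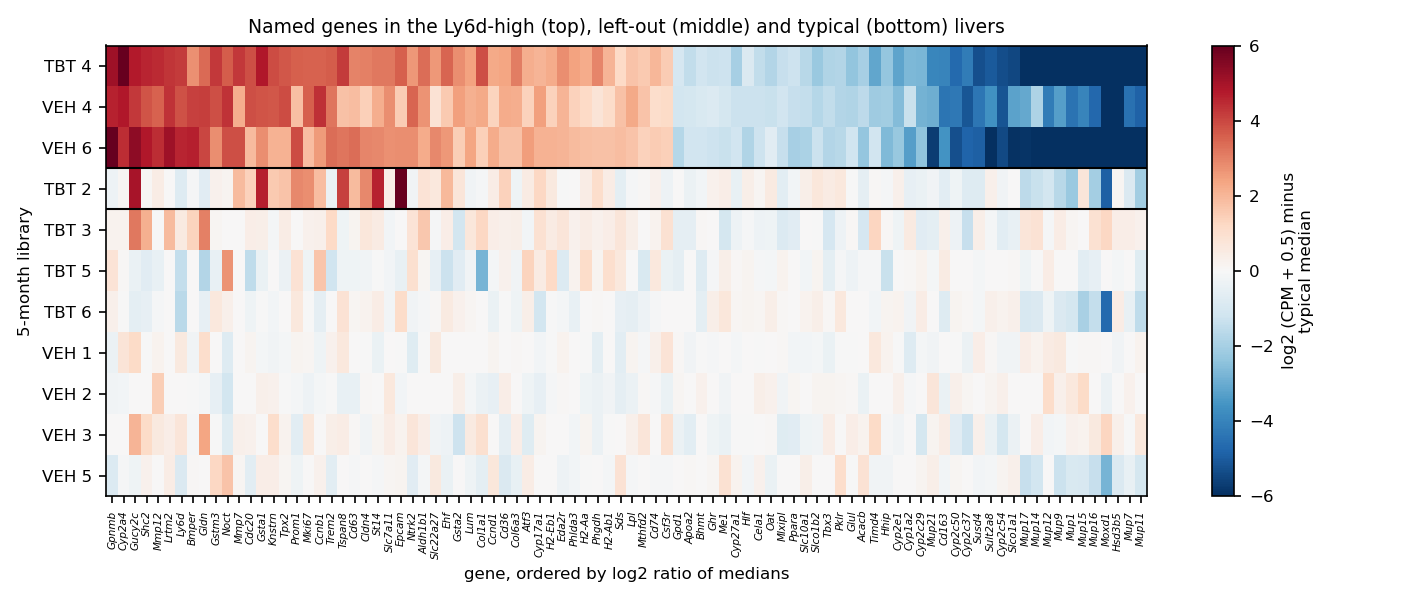
Named genes that differed at 5 months (columns, ordered by ratio of medians) in the 11 libraries of that age (rows), coloured by log2(CPM + 0.5) minus the median of the typical livers, with differences beyond 6 drawn in the end colours. The top 3 rows, TBT 4, VEH 4 and VEH 6, differ from the bottom 7 in every column by construction of the rule, and VEH 4 is paler than TBT 4 and VEH 6 for most Mup genes.

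The major urinary proteins, small lipocalins that carry pheromones, made up 9 of the 15 lowest ratios. The 22 Mup genes in the table summed to 1170 CPM in TBT 4, 5182 in VEH 4 and 1488 in VEH 6, against 16340 to 22590 CPM in the typical livers (median 19830). The typical median was 16.9 times the sum of TBT 4, 3.83 times that of VEH 4 and 13.3 times that of VEH 6, so VEH 4 had the highest sum of the 3 and still lay below every typical liver. In all, 17 of the 20 Mup genes past the filter were lower in all 3 livers. The sum was 1406 to 5836 CPM in adenomas, against 9607 to 21340 CPM in TBT livers. Mup7 had 9.14, 199 and 17.2 CPM in TBT 4, VEH 4 and VEH 6, against 3246 to 6008 CPM (median 4490) in the typical livers. Mup11 had 1.20, 34.6 and 2.10 CPM in the Ly6d-high livers, against 342 to 1529 CPM (median 998) in typical livers. Single Mup values are uncertain, because 78.1% to 100% of the 50-base windows of the transcripts of Mup1, 7, 9, 11, 12, 14, 15, 16 and 17 also lie in another gene's transcript, and the sum is the safer figure. Mup21, whose windows were shared to 19.3%, had 27.9, 55.9 and 7.75 CPM in the Ly6d-high livers, against 287 to 714 CPM (median 432) in typical livers (adenoma over TBT liver, log2 -2.33 ± 0.27, SE, adjusted p = 7.64e-06).

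Of 18 genes of a male-biased list, 0 were higher and 8 lower in the Ly6d-high livers (list median -1.93). Without VEH 4 the lower count was 14, the largest change of this count on leaving out 1 of the 3, under a rule that fewer livers meet more easily. At 10 months 1 of the 18 members tested was higher and 9 lower in adenoma than in TBT liver. Slco1a1, an organic anion transporter, had 14.5, 72.1 and 10.5 CPM in TBT 4, VEH 4 and VEH 6, against 482 to 819.6 CPM (median 662) in the typical livers, a median 44.2-fold lower, and was lower in adenoma (adenoma over TBT liver, log2 -3.92 ± 0.49, SE, adjusted p = 1.70e-05). VEH 4 was again the highest of the 3. Moxd1, a monooxygenase-like gene, had 0.653, 1.02 and 0.256 CPM in the Ly6d-high livers, against 7.14 to 461 CPM (median 191) in typical livers. The typical livers ranged widely here, and its adenoma difference was log2 -4.75 ± 1.32, SE, adjusted p = 0.00790, with 2 of 7 adenomas below every TBT liver, and missed the threshold under limma-voom (adjusted p = 0.294). Sult2a8, a liver sulfotransferase, had 19.3, 52.8 and 5.54 CPM in the Ly6d-high livers, against 496 to 804 CPM (median 652) in typical livers (adenoma over TBT liver, log2 -2.75 ± 0.46, SE, adjusted p = 1.62e-04). Susd4, a membrane inhibitor of complement, had 0.435, 1.30 and 0.718 CPM in the Ly6d-high livers, against 32.8 to 47.7 CPM (median 36.2) in typical livers (adenoma over TBT liver, log2 -4.28 ± 0.52, SE, adjusted p = 1.48e-05). The female-biased list showed 4 of 24 members higher and 0 lower, and 7 higher without VEH 4, while without VEH 6 4 were higher and 2 lower. Its higher members were Cyp2a4, Cyp17a1, Ntrk2 and Slc22a27. Cyp17a1, a steroid hydroxylase and lyase, had 156, 206 and 161 CPM in TBT 4, VEH 4 and VEH 6, against 17.2 to 70.9 CPM (median 37.1) in the typical livers. Ntrk2, the receptor for brain-derived neurotrophic factor, had 38.3, 70.7 and 42.6 CPM in the Ly6d-high livers, against 3.34 to 11.7 CPM (median 5.82) in typical livers. Slc22a27, an organic anion transporter gene, had 3.81, 0.787 and 4.77 CPM in the Ly6d-high livers, against 0 to 0.569 CPM (median 0.206) in typical livers. None of these 3 passed the 10-month test of adenoma over TBT liver (log2 0.19 ± 0.54, adjusted p = 0.800 for Cyp17a1, adjusted p = 0.0996 for Ntrk2 and 0.687 for Slc22a27), although Ntrk2 passed with only adenoma and TBT liver in the fit (adjusted p = 0.0310). Ghr, the growth hormone receptor, had 230.5, 318 and 236 CPM in TBT 4, VEH 4 and VEH 6, against 472 to 707 CPM (median 557) in the typical livers, and was lower in all 7 adenomas (adenoma over TBT liver, log2 -0.74 ± 0.09, SE, adjusted p = 1.35e-05). It was the 1 lower member of 15 growth hormone and IGF axis genes, of which 0 were higher and 14 neither (list median -0.162). Without TBT 4 this list gave 1 higher and 3 lower.

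Of 15 genes of the hepatocytes around the central vein, 8 were lower and 0 higher in the Ly6d-high livers (list median -1.18), and 7 were neither. The lower count was 6 without TBT 4 and 9 without VEH 6. Of 15 periportal genes 2 were higher and 0 lower (list median 0.67; 1 lower without VEH 4 and 1 without VEH 6). The pericentral genes summed to 2294, 2926 and 3591 CPM in TBT 4, VEH 4 and VEH 6, against 10360 to 13030 CPM in the typical livers. At 10 months 0 of the 15 members tested were higher and 5 lower in adenoma than in TBT liver, and of the periportal list 4 were higher and 1 lower of 15, beside 23.9% and 20.8% of all genes, so the higher periportal count is near the background. Glul, glutamine synthetase, had 195, 286 and 441 CPM in TBT 4, VEH 4 and VEH 6, against 807 to 1295 CPM (median 995) in the typical livers. In adenomas it ran from 231 to 1672 CPM (median 331), against 785 to 1256 CPM (median 1248) in TBT livers, and the difference did not pass the test (adenoma over TBT liver, log2 -0.94 ± 0.40, SE, adjusted p = 0.0641). Adenoma 6, the highest, was above every TBT liver and the other 6 were below. Without adenoma 6 the difference passed (log2 -1.51, adjusted p = 1.71e-04), as it did under limma-voom (adjusted p = 0.0112) and against VEH liver (adjusted p = 0.0277). Cyp2e1, the ethanol-metabolising P450, had 737, 1089 and 1376 CPM in TBT 4, VEH 4 and VEH 6, against 5541 to 8277 CPM (median 6627) in the typical livers (adenoma over TBT liver, log2 -1.53 ± 0.41, SE, adjusted p = 0.00557). Cyp1a2, another pericentral P450, had 56.5, 146 and 36.1 CPM in the Ly6d-high livers, against 216 to 528 CPM (median 364) in typical livers (adenoma over TBT liver, log2 -1.11 ± 0.42, SE, adjusted p = 0.0397). The adenoma difference of Cyp1a2 missed the threshold on leaving out adenoma 1, 3, 5, 7, 11 or 12 or TBT liver 2, 4 or 9 (adjusted p 0.0526 to 0.0871), with no filter (0.0563) and with only adenoma and TBT liver in the fit (0.0853). Oat, ornithine aminotransferase, had 314, 420.2 and 656 CPM in the Ly6d-high livers, against 805 to 1353 CPM (median 1047) in typical livers. Tbx3, a transcription factor and Wnt target, had 9.14, 11.4 and 9.44 CPM in the Ly6d-high livers, against 16.3 to 45.3 CPM (median 32.7) in typical livers. Their adenoma differences missed the threshold (adjusted p = 0.0630 for Oat and 0.114 for Tbx3). Oat passed without adenoma 6 (log2 -1.68, adjusted p = 3.47e-04) and Tbx3 without adenoma 7 (log2 -1.44, adjusted p = 0.0230). Oat also passed under DESeq2 (adjusted p = 0.0415), limma-voom (adjusted p = 0.0107) and against VEH liver (adjusted p = 0.0262), and Tbx3 under limma-voom (adjusted p = 0.0124). The higher periportal genes were Sds and Aldh1b1. Sds, serine dehydratase, had 264, 397 and 416 CPM in the Ly6d-high livers, against 74.3 to 215 CPM (median 117) in typical livers. Aldh1b1, a mitochondrial aldehyde dehydrogenase, had 478, 298 and 219.7 CPM in the Ly6d-high livers, against 41.9 to 140.5 CPM (median 45.9) in typical livers. Both were also higher in adenoma (log2 0.92 ± 0.21, SE, adjusted p = 0.00198 for Sds, log2 2.08 ± 0.28, SE, adjusted p = 2.13e-05 for Aldh1b1). All 3 livers were on the same side for each of these genes, and TBT 4 had the lowest Glul, Cyp2e1 and Oat. Of 11 Wnt target genes, Ccnd1 was the 1 higher and Tbx3 the 1 lower (2 lower without TBT 4 and 2 without VEH 6).

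Among 22 bile acid genes there were 2 higher and 5 lower, but 0 higher and 6 lower without TBT 4, the library with high Lars2. Of 20 xenobiotic P450 and sensor genes 2 were higher and 7 lower. Slc10a1, the sodium-dependent bile acid importer of hepatocytes, had 186, 213 and 156 CPM in TBT 4, VEH 4 and VEH 6, against 483 to 734 CPM (median 582) in the typical livers (adenoma over TBT liver, log2 -1.88 ± 0.37, SE, adjusted p = 5.97e-04). Slco1b2, a sodium-independent importer, had 295, 426 and 567 CPM in the Ly6d-high livers, against 1187 to 1751 CPM (median 1377) in typical livers (adenoma over TBT liver, log2 -1.32 ± 0.19, SE, adjusted p = 3.44e-05). Cyp27a1, an enzyme of the alternative route of bile acid synthesis, had 142, 232 and 256 CPM in the Ly6d-high livers, against 456 to 660.5 CPM (median 563) in typical livers (adenoma over TBT liver, log2 -1.06 ± 0.15, SE, adjusted p = 2.44e-05). The transporters were lower in each of the 3 livers than in any typical one. The 15 Cyp2c genes summed to 599, 932 and 904 CPM in TBT 4, VEH 4 and VEH 6, against 1841 to 3288 CPM in typical livers. They summed to 453 to 1554 CPM in adenomas, against 2389 to 2920 CPM in TBT livers. Within the family Cyp2c29 had 99.8, 93.5 and 126 CPM in the Ly6d-high livers, against 325 to 904 CPM (median 673) in typical livers, a median 6.71-fold lower. Cyp2c54 had 3.81, 4.26 and 3.54 CPM in the Ly6d-high livers, against 83.5 to 213 CPM (median 173) in typical livers, a median 40.3-fold lower. Cyp2c37 and Cyp2c50 were 28.1-fold and 25.7-fold lower. Reads of Cyp2c37, Cyp2c50 and Cyp2c54 can be shared with other family members (25.7% to 30.7% of windows), so their separate values are uncertain. The same caution holds for other genes named in this report. The shared windows were 59.6% for Bhmt, 36.5% for Cd63, 34.5% for Noct, 30.5% for Slc22a27 and 26.5% for Me1. The P450 genes on the higher side were Cyp2b10 and Cyp3a11.

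Of 16 lipogenic genes, 5 were lower and 0 higher (list median -0.92), and at 10 months 0 of the 16 members tested were higher and 10 lower in adenoma than in TBT liver. Pklr, the liver pyruvate kinase, had 49.0, 49.1 and 53.03 CPM in TBT 4, VEH 4 and VEH 6, against 134 to 346 CPM (median 168) in the typical livers (adenoma over TBT liver, log2 -1.33 ± 0.33, SE, adjusted p = 0.00388). Acacb, the acetyl-CoA carboxylase of the mitochondrial surface, had 63.1, 83.7 and 50.01 CPM in the Ly6d-high livers, against 125 to 458 CPM (median 253) in typical livers (adenoma over TBT liver, log2 -1.54 ± 0.45, SE, adjusted p = 0.0103). Mlxipl, the carbohydrate-responsive transcription factor ChREBP that drives Pklr, had 27.9, 32.5 and 27.9 CPM in the Ly6d-high livers, against 41.3 to 85.4 CPM (median 73.3) in typical livers (adenoma over TBT liver, log2 -0.82 ± 0.15, SE, adjusted p = 3.01e-04). In all 3 livers each of these genes was below the lowest typical value. Me1, malic enzyme, came closest to overlap, with 56.7, 65.8 and 53.6 CPM in the Ly6d-high livers, against 66.1 to 257 CPM (median 136) in typical livers. Of 15 lipid droplet and PPARG target genes, 2 were higher and 1 was lower (5 higher without VEH 6). The higher ones were Cd36 and Lpl. Cd36, a fatty acid uptake receptor, had 199.6, 179.5 and 128 CPM in the Ly6d-high livers, against 20.4 to 50.2 CPM (median 37.7) in typical livers. Lpl, lipoprotein lipase, had 50.04, 73.0 and 49.5 CPM in the Ly6d-high livers, against 10.1 to 19.1 CPM (median 14.9) in typical livers. Both were higher in adenoma (log2 1.70 ± 0.48, SE, adjusted p = 0.00921 for Cd36, log2 3.76 ± 0.32, SE, adjusted p = 3.67e-07 for Lpl). The lower one was Gpd1, glycerol-3-phosphate dehydrogenase, with 246, 229 and 150 CPM in the Ly6d-high livers, against 335 to 539 CPM (median 496) in typical livers, and it did not pass the adenoma test (adenoma over TBT liver, log2 -0.26 ± 0.18, SE, adjusted p = 0.260), except without adenoma 12 (log2 -0.44, adjusted p = 0.00958). Ppara, the nuclear receptor for fatty acids, had 124, 113 and 73.6 CPM in the Ly6d-high livers, against 185 to 321 CPM (median 296) in typical livers (adenoma over TBT liver, log2 -0.75 ± 0.15, SE, adjusted p = 4.93e-04), and was the single lower member of 20 fatty acid oxidation and PPARA target genes.

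Cell cycle genes had a list median of log2 1.84, against -0.036 over all filtered genes. Of 35 members, 20 were higher and 0 lower, beside the background of 5.57% higher. At 10 months 31 of the 35 members tested were higher and 0 lower in adenoma than in TBT liver. Mki67, the proliferation antigen Ki-67, had 35.9, 37.0 and 10.7 CPM in TBT 4, VEH 4 and VEH 6, against 2.01 to 4.43 CPM (median 2.62) in the typical livers. VEH 6 was well below the other two and still above every typical liver, and TBT 2 had 21.2 CPM. The adenomas had 5.47 to 73.4 CPM (median 42.0), against 2.00 to 5.03 CPM (median 3.98) in TBT livers (adenoma over TBT liver, log2 3.45 ± 0.52, SE, adjusted p = 8.21e-05). Cdc20, which activates the ubiquitin ligase that ends mitosis, had 20.1, 20.1 and 4.77 CPM in the Ly6d-high livers, against 0 to 1.37 CPM (median 0.927) in typical livers (adenoma over TBT liver, log2 4.03 ± 0.66, SE, adjusted p = 1.41e-04). Tpx2, a spindle assembly factor, had 10.2, 11.6 and 2.98 CPM in the Ly6d-high livers, against 0.143 to 0.600 CPM (median 0.314) in typical livers (adenoma over TBT liver, log2 3.90 ± 0.56, SE, adjusted p = 4.39e-05). Ccnb1, a mitotic cyclin, had 9.14, 16.7 and 4.31 CPM in the Ly6d-high livers, against 0.0784 to 2.14 CPM (median 0.328) in typical livers (adenoma over TBT liver, log2 4.66 ± 0.70, SE, adjusted p = 6.89e-05), although 42.1% of its windows are shared with other transcripts. Knstrn, a kinetochore protein, had 9.25, 8.06 and 2.26 CPM in the Ly6d-high livers, against 0.0607 to 0.820 CPM (median 0.143) in typical livers (adenoma over TBT liver, log2 3.77 ± 0.55, SE, adjusted p = 4.96e-05). In each of these 5 genes VEH 6 was the lowest of the 3. Over the whole list the summed level was 321, 363 and 179.8 CPM in TBT 4, VEH 4 and VEH 6, against 92.8 to 139 CPM in typical livers and 213 CPM in TBT 2, so VEH 6 lay below TBT 2. The members not called were mainly those of DNA replication, such as Mcm2, Mcm3, Mcm4, Pcna and Tyms.

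Mitotic genes of this kind are known to be controlled together through short promoter elements, CCAAT boxes and the cell cycle homology region with the core TTTGAA. Their promoters are printed because these genes were higher together. The 4 windows below are RefSeq sequences of GRCm38.p6, from 250 bases before to 50 bases after the gene's start, 5′ to 3′ on the gene's strand, with TTTGAA and CCAAT on either strand in capitals. They are 4 of the members called higher at 5 months that had a sequence, and are not a strict ranking by ratio.

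Cdc20 promoter (chr4:118437294-118437593, minus strand): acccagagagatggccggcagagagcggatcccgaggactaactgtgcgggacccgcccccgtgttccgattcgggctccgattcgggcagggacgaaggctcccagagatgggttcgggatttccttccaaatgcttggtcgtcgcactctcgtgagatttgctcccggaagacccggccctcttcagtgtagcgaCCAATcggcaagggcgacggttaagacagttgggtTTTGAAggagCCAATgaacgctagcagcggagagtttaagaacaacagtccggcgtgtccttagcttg
Mki67 promoter (chr7:135716330-135716629, minus strand): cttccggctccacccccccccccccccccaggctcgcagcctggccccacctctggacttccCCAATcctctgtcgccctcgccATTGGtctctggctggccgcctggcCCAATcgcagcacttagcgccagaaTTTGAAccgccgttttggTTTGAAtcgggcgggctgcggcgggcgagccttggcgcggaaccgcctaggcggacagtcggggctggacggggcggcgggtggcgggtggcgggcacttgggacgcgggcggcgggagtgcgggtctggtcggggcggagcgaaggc
Ccnb1 promoter (chr13:100786437-100786736, minus strand): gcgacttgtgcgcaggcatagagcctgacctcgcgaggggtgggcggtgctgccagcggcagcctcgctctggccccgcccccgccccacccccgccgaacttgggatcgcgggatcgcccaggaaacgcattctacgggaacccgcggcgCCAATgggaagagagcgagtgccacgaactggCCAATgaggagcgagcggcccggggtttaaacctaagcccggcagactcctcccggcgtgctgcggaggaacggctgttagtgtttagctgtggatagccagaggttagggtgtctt
Ccnb2 promoter (chr9:70421505-70421804, minus strand): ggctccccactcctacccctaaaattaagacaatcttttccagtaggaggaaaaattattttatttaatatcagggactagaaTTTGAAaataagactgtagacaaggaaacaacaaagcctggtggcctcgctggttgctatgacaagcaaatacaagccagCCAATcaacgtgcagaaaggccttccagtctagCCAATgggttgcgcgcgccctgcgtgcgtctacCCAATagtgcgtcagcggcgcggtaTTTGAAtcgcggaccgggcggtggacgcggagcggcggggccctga

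The Cdc20 window held 1 TTTGAA and 2 CCAAT, the Mki67 and Ccnb2 windows each held 2 TTTGAA and 3 CCAAT, and the Ccnb1 window held 0 TTTGAA and 2 CCAAT. Of the 35 listed genes 28 had a promoter sequence, and 11 of these (39.3%) held TTTGAA and 20 (71.4%) CCAAT, searched on both strands. Of all 27025 genes with a promoter, 18.1% held TTTGAA and 37.9% CCAAT, and the pair occurred in 39.3% of the list and 7.12% of all. A match is a string of letters and does not show that a factor binds there.

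**Figure D5:**
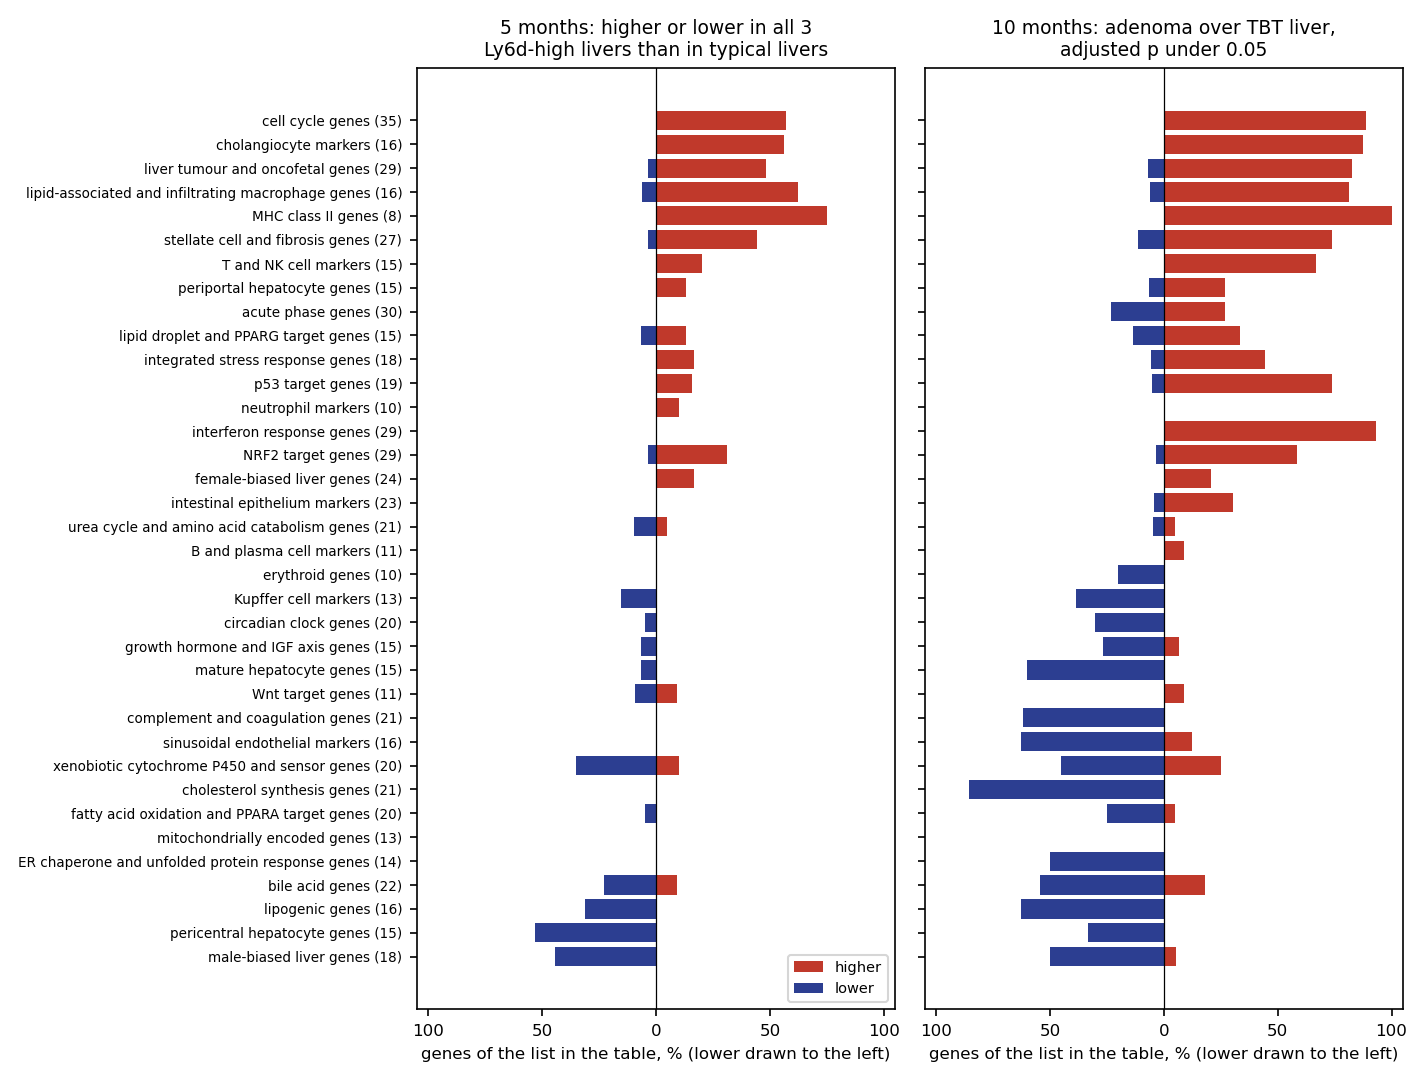
Share of each gene list in the table (number in brackets) that was higher (red, to the right) or lower (blue, to the left) in the 3 Ly6d-high livers than in all typical livers, and in adenoma over TBT liver at 10 months. Lists are ordered by the 5-month median over all their members in the table, those below the filter included, with male-biased genes at the bottom, and interferon response genes are empty at 5 months with 27 of 29 higher in adenoma.

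Of 29 targets of NRF2, the regulator of the response to electrophiles, 9 were higher and 1 was lower (2 without VEH 4) in the Ly6d-high livers. The higher count was 6 without TBT 4, the library with high Lars2, 7 without VEH 4 and 11 without VEH 6. At 10 months 17 of the 29 members tested were higher and 1 lower in adenoma than in TBT liver. The higher members were Nqo1, Srxn1, Slc7a11, Gsta1, Gsta2, Gsta4, Gstm3, Abcc4 and Cbr3, and the lower one was Me1. The list median was 0.29, and 19 members were neither higher nor lower. Gsta1, a glutathione transferase, had 17.8, 8.52 and 4.15 CPM in TBT 4, VEH 4 and VEH 6, against 0 to 0.379 CPM (median 0.164) in the typical livers, with 16.3 CPM in TBT 2. Its relative Gsta2 had 28.9, 22.6 and 11.4 CPM in the Ly6d-high livers, against 1.31 to 4.89 CPM (median 3.76) in typical livers. Slc7a11, the cystine importer, had 4.57, 3.43 and 3.28 CPM in the Ly6d-high livers, against 0 to 0.360 CPM (median 0.0607) in typical livers. In adenoma Slc7a11 was higher by log2 6.81 ± 1.16, SE, adjusted p = 2.04e-04, and missed the threshold under limma-voom (adjusted p = 0.0564). Windows of Gsta1 and Gsta2 are shared to 89.7% and 64.2%, so these 2 genes are not cleanly separable. Of 19 p53 targets 3 were higher (5 without TBT 4 and 5 without VEH 6), and 14 were higher in adenoma. Phlda3, a p53-induced repressor of Akt signalling, had 8.27, 3.84 and 5.59 CPM in the Ly6d-high livers, against 0.706 to 1.46 CPM (median 1.15) in typical livers (adenoma over TBT liver, log2 3.24 ± 0.33, SE, adjusted p = 1.70e-06). Eda2r, a receptor of the tumour necrosis factor family, had 8.92, 5.09 and 5.13 CPM in the Ly6d-high livers, against 0.286 to 1.80 CPM (median 0.875) in typical livers (adenoma over TBT liver, log2 2.13 ± 0.34, SE, adjusted p = 9.83e-05). Cdkn1a, the cell cycle inhibitor p21, overlapped, with 8.38, 32.1 and 18.5 CPM in the Ly6d-high livers, against 0.685 to 28.0 CPM (median 6.14) in typical livers, while in adenoma it was higher by log2 3.27 ± 0.41, SE, adjusted p = 1.41e-05. Of 18 integrated stress response genes 3 were higher (5 without VEH 4). The transcription factor gene Atf3 had 7.83, 4.35 and 10.0 CPM in the Ly6d-high livers, against 0.601 to 4.14 CPM (median 1.33) in typical livers. The serine synthesis gene Phgdh had 5.98, 0.926 and 2.36 CPM in the Ly6d-high livers, against 0.0607 to 0.514 CPM (median 0.341) in typical livers, with 63.1% of its windows shared. The folate enzyme gene Mthfd2 had 7.07, 7.83 and 6.16 CPM in the Ly6d-high livers, against 0.857 to 3.77 CPM (median 2.06) in typical livers. ER chaperone genes gave 0 higher and 0 lower of 14.

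In bulk tissue fewer cells of a type and less RNA per cell cannot be told apart, so the cell-type lists describe transcripts and not cell numbers. How far cells other than hepatocytes set the differences in hepatocyte genes was not tested. Of 16 genes of lipid-associated and infiltrating macrophages, 10 were higher and 1 was lower. The list summed to 1127, 827 and 1290 CPM in TBT 4, VEH 4 and VEH 6, against 417 to 785 CPM in typical livers, with 0 members at 0 in all 3. In adenoma 13 of 16 were higher and 1 was lower. Trem2, a lipid-sensing macrophage receptor, had 13.4, 9.87 and 10.9 CPM in TBT 4, VEH 4 and VEH 6, against 0 to 2.06 CPM (median 0.627) in the typical livers. It had 4.28 to 13.0 CPM (median 6.66) in adenomas, against 0.611 to 1.45 CPM (median 1.06) in TBT livers (adenoma over TBT liver, log2 2.73 ± 0.30, SE, adjusted p = 3.18e-06). Mmp12, macrophage elastase, had 14.7, 7.50 and 14.2 CPM in the Ly6d-high livers, against 0 to 1.39 CPM (median 0.190) in typical livers (adenoma over TBT liver, log2 3.87 ± 0.53, SE, adjusted p = 3.16e-05), and the lysosomal tetraspanin gene Cd63 had 20.4, 8.94 and 26.7 CPM in the Ly6d-high livers, against 1.44 to 2.48 CPM (median 2.12) in typical livers. Kupffer cell markers, those of the resident liver macrophage, gave 0 higher and 2 lower of 13, with sums of 716, 699 and 900 CPM in TBT 4, VEH 4 and VEH 6, against 482 to 1160 CPM in typical livers. Timd4, a receptor for phosphatidylserine on embryo-derived Kupffer cells, had 0.109, 0.695 and 1.85 CPM in the Ly6d-high livers, against 4.02 to 12.2 CPM (median 4.74) in typical livers. Cd163, the haemoglobin scavenger receptor, had 1.52, 1.02 and 2.15 CPM in the Ly6d-high livers, against 18.0 to 43.6 CPM (median 30.9) in typical livers. These were the 2 lower ones, and both were lower in all 7 adenomas (log2 -4.18 ± 0.26, SE, adjusted p = 7.46e-09 for Timd4, log2 -4.90 ± 0.29, SE, adjusted p = 7.46e-09 for Cd163). Other Kupffer markers such as Clec4f, Vsig4, Marco and the C1q genes were neither higher nor lower by the rule. Of these, Clec4f was lower in each Ly6d-high liver than in any typical one and missed only the minimum ratio (log2 -0.88). In adenoma over TBT liver 5 of the 13 Kupffer markers were lower and 0 higher. Marco (log2 -3.89, adjusted p = 5.15e-05) and Clec4f (log2 -1.18, adjusted p = 3.25e-04) were among the lower ones. MHC class II genes gave 6 higher of 8 and sums of 679, 352 and 519 CPM in the Ly6d-high livers, against 144 to 296 CPM in typical livers. The antigen-presenting chain H2-Aa had 128, 62.8 and 96.5 CPM in the Ly6d-high livers, against 22.2 to 58.7 CPM (median 26.9) in typical livers. Its partner H2-Ab1 had 120.4, 62.6 and 97.9 CPM in the Ly6d-high livers, against 24.4 to 57.0 CPM (median 28.5) in typical livers. H2-Eb1 had 91.4, 50.6 and 82.4 CPM in the Ly6d-high livers, against 18.1 to 44.7 CPM (median 19.3) in typical livers. For these 3 genes TBT 5 was the highest typical liver. The invariant chain Cd74 had 305, 158 and 220.2 CPM in the Ly6d-high livers, against 72.0 to 119 CPM (median 75.6) in typical livers. T and NK cell markers gave 3 higher of 15 (Cd8a, Ccl5 and Ms4a4b), with sums of 16.2, 16.3 and 15.6 CPM in the Ly6d-high livers, against 6.82 to 11.3 CPM in typical livers. Neutrophil markers gave 1 of 10, Csf3r, with 6.42, 4.77 and 6.00 CPM in the Ly6d-high livers, against 1.29 to 4.16 CPM (median 1.88) in typical livers, and its difference of adenoma over TBT liver missed the threshold (adjusted p = 0.216). B and plasma cell markers gave 0 of 11 (2 higher without VEH 4 and 1 without VEH 6).

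Of 27 genes of stellate cells and fibrosis, 12 were higher and 1 was lower (2 without VEH 4), and 14 were neither, with sums of 2035, 1288 and 1078 CPM in TBT 4, VEH 4 and VEH 6, against 716 to 892 CPM in typical livers. At 10 months 20 of the 27 members tested were higher and 3 lower in adenoma than in TBT liver. Col1a1, the main fibrillar collagen chain, had 109, 36.2 and 19.8 CPM in TBT 4, VEH 4 and VEH 6, against 0.571 to 17.4 CPM (median 6.98) in the typical livers (adenoma over TBT liver, log2 2.74 ± 0.31, SE, adjusted p = 6.29e-06). TBT 4 was the highest and VEH 6 was only just above the highest typical liver. Lum, the proteoglycan lumican, had 46.9, 37.8 and 45.3 CPM in the Ly6d-high livers, against 6.79 to 13.4 CPM (median 8.25) in typical livers (adenoma over TBT liver, log2 1.60 ± 0.22, SE, adjusted p = 2.32e-05). Col6a3, a collagen VI chain, had 194, 106 and 78.7 CPM in the Ly6d-high livers, against 16.6 to 30.2 CPM (median 22.6) in typical livers (adenoma over TBT liver, log2 1.95 ± 0.16, SE, adjusted p = 1.91e-07). Hhip, a hedgehog inhibitor, was the lower member, with 0.979, 1.20 and 0.667 CPM in the Ly6d-high livers, against 2.43 to 8.13 CPM (median 6.85) in typical livers, and it was lower in all 7 adenomas (adenoma over TBT liver, log2 -5.40 ± 0.38, SE, adjusted p = 3.03e-08). Of 16 cholangiocyte markers 9 were higher, 0 lower and 4 neither, with sums of 406, 138 and 301 CPM in TBT 4, VEH 4 and VEH 6, against 38.1 to 128 CPM in typical livers and 329 CPM in TBT 2. In adenoma 14 of 14 were higher. Epcam, an epithelial adhesion molecule, had 17.1, 3.61 and 9.49 CPM in TBT 4, VEH 4 and VEH 6, against 0.571 to 2.59 CPM (median 0.943) in the typical livers, with 97.4 CPM in TBT 2. Ehf, an epithelial transcription factor, had 13.2, 3.10 and 6.87 CPM in the Ly6d-high livers, against 0 to 1.25 CPM (median 0.721) in typical livers (adenoma over TBT liver, log2 2.99 ± 0.24, SE, adjusted p = 1.49e-07). The tight junction gene Cldn4 had 4.24, 1.06 and 3.85 CPM in the Ly6d-high livers, against 0 to 0.428 CPM (median 0.0758) in typical livers. St14, the membrane protease matriptase, had 10.3, 5.09 and 8.36 CPM in the Ly6d-high livers, against 0.425 to 1.20 CPM (median 0.721) in typical livers, with 29.4 CPM in TBT 2. VEH 4 was the lowest of the 3 for all 4 duct genes. Of 23 intestinal epithelium markers only 10 passed the filter and could be called, and 0 were higher and 0 lower (2 higher without VEH 4 and 1 without VEH 6). The list median was 0.245. Sis and Alpi were at or below 0.326 CPM in the 3 livers, while Vil1, which did not pass the filter, was above every typical liver in all 3 (log2 ratio of medians 1.43). The part of intestinal transcripts in the duct genes was not tested. Sinusoidal endothelial markers gave 0 higher and 0 lower of 16 (1 lower without TBT 4, sums of 566, 492 and 440.1 CPM in the Ly6d-high livers, against 519.8 to 728 CPM in typical livers), whereas in adenoma 10 were lower and 2 higher.

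Some lists that differed between adenoma and TBT liver had 0 members past the rule in the Ly6d-high livers. The 5-month rule and the 10-month test are different measures with different numbers of libraries, so the lists' counts are set side by side and not compared. Of 29 interferon response genes 0 were higher or lower at 5 months (median 0.30, with 2 higher without TBT 4 and 2 without VEH 6), and 27 were higher in adenoma. Of 21 cholesterol synthesis genes 0 were called at 5 months (4 lower without TBT 4 and 2 without VEH 6), and 18 were lower in adenoma. Of 21 complement and coagulation genes 0 were called at 5 months (2 lower without VEH 4), and 13 were lower in adenoma. Acute phase genes gave 0 of 30 at 5 months (1 lower without VEH 4) with wide sums in both sets, 49690, 103300 and 170700 CPM in TBT 4, VEH 4 and VEH 6, against 40010 to 184500 CPM in typical livers. Mitochondrially encoded genes gave 0 of 13 (1 lower without VEH 4), and they gave 0 in adenoma over TBT liver as well. Of 20 circadian clock genes 1 was lower (2 without TBT 4), Hlf, a rhythmic transcription factor, with 14.1, 10.5 and 7.23 CPM in the Ly6d-high livers, against 23.1 to 29.6 CPM (median 26.1) in typical livers (adenoma over TBT liver, log2 -0.95 ± 0.26, SE, adjusted p = 0.00610). Arntl, the core clock factor BMAL1, overlapped between the sets, with 7.94, 44.3 and 21.3 CPM in the Ly6d-high livers, against 1.71 to 29.2 CPM (median 13.8) in typical livers. Of 15 mature hepatocyte genes 1 was lower (2 without VEH 4 and 2 without VEH 6), the apolipoprotein gene Apoa2, with 2741, 3668 and 3453 CPM in the Ly6d-high livers, against 4858 to 8026 CPM (median 7635) in typical livers, and in adenoma it was lower by log2 -0.78 ± 0.11, SE, adjusted p = 3.75e-05. The remaining members, albumin among them, were not called at 5 months. Of these, Apoa1, Ttr, Serpina1a, Cebpa, Apoh and Rbp4 were lower in each Ly6d-high liver than in any typical one, and missed only the minimum ratio. In adenoma over TBT liver 9 of the 15 mature hepatocyte genes were lower and 0 higher.

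A few named genes differed in all 3 Ly6d-high livers but missed the threshold in adenoma over TBT liver. Besides Cyp17a1, Ntrk2, Slc22a27, Glul, Oat, Tbx3, Gpd1 and Csf3r, Gldn, a secreted olfactomedin protein, had 17.0, 29.3 and 26.5 CPM in TBT 4, VEH 4 and VEH 6, against 0 to 12.9 CPM (median 1.18) in the typical livers, and missed the threshold (adenoma over TBT liver, log2 1.67 ± 0.70, SE, adjusted p = 0.0614). It passed without adenoma 11, TBT liver 2 or TBT liver 8 (adjusted p 0.0303 to 0.0441), under DESeq2 (adjusted p = 0.0409) and under limma-voom (adjusted p = 0.0101). Bhmt, which remethylates homocysteine, had 1952, 2341 and 1979 CPM in the Ly6d-high livers, against 2543 to 5179 CPM (median 4393) in typical livers, and gave log2 -0.23 ± 0.27, SE, adjusted p = 0.514 in adenoma over TBT liver. Without adenoma 7 it passed (log2 -0.56, adjusted p = 0.0136). Cela1, an elastase gene, had 8.16, 9.31 and 9.64 CPM in the Ly6d-high livers, against 18.9 to 29.9 CPM (median 23.3) in typical livers (adenoma over TBT liver, log2 0.71 ± 0.46, SE, adjusted p = 0.223). Glul, Oat, Bhmt, Csf3r and Gldn passed in adenoma over VEH liver, each on its 5-month side (edgeR, adjusted p 0.00475 to 0.0277), and the other 6 did not (adjusted p 0.0548 to 0.290). Missing the threshold does not show that adenoma and TBT liver were alike for these genes. They belong to the 33 of 710 higher and 25 of 197 lower genes that did not pass in adenoma over TBT liver.

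The 3 livers were not equally far from typical liver. Over the 712 higher genes the median log2 difference from the typical median was 1.96 in TBT 4, 1.34 in VEH 4 and 1.42 in VEH 6, and over the 197 lower genes -1.59, -1.38 and -1.54. The left-out TBT 2 stood at 0.33 and -0.0683 on the same genes. Of the 909 genes together, 187 (20.6%) were at least 2-fold apart between TBT 4 and VEH 4, 164 (18%) between TBT 4 and VEH 6, and 148 (16.3%) between VEH 4 and VEH 6. Among typical livers TBT 3 lay nearest to the 3. It was the highest of the 7 for 258 of the 712 higher genes and the lowest for 58 of the 197 lower genes, with medians of 0.291 and -0.135. VEH 3 followed on the higher genes, as the highest for 139, with medians of 0.146 and -0.043. Both are within the typical set by the Ly6d rule, at 6.94 CPM in TBT 3 and 8.09 CPM in VEH 3.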

How the data were processed

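RNA from frozen liver or adenoma was sequenced from stranded total RNA libraries, per the labels' protocols. The authors deposited raw read counts per coding gene (22028 genes), and no file gives normalised values. FastQC, Trim Galore, HISAT2, featureCounts and edgeR with build mm10 are named in the submitters' processing notes; the versions, the annotation and any use of strand are not given there, so overlapping and antisense genes are uncertain. Of the symbols, 27 had turned into dates and were put back by gene identifier, and coordinates are from GENCODE M21. Total counts ran from 7513448 to 33704303 per library, so values near 1 CPM rest on few reads in the shallow libraries. The replicate number of 1 TBT liver of 10 months differs between its title and its column, and 9, from the column, is given here.

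CPM were scaled by TMM over 29 libraries. The 5-month description used 12779 genes that passed edgeR's filterByExpr (minimum count 10, total 15) in 10 libraries, the no-overlap rule and a 2-fold ratio of medians on CPM + 0.5. The 10-month fit held 18 libraries and 13474 genes (edgeR 4.0.16, R 4.3.3, quasi-likelihood with robust dispersion, two-sided, Benjamini-Hochberg at 0.05), with DESeq2 1.42.0 and limma 3.58.1 as alternatives. It was tested on simulated counts with known changes. Read sharing is the percent of 50-base windows of a gene's longest coding transcript found in another gene's transcript. Values given for a list's named members followed a rule: the called genes with the 15 largest ratios per direction, given a median of at least 2 CPM in a set, up to 4 called members of each list, and a fixed set (Ly6d, Gpnmb, Hsd3b5, Sis, Alpi, Lars2, Afp, Mki67, Glul, Cdkn1a and Arntl). Members named without values were chosen after their calls were seen. The libraries, the lists and the rules were chosen with earlier results of these data known.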

Additional observations from a re-analysis of the deposited data

Results flagged for a closer look

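Among 101 sets of values that the text reports, 21 (20.8%) held 1 library far from the rest of its group. A chance rate of about 1 in 20 would hold for normally distributed values. The values here are CPM, many of them low, and most flags were on the high side. The share of 20.8% therefore cannot show an excess of outlying libraries. The sets are not independent, since many genes share 1 library.

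Among the 7 typical livers TBT 3 was the high library for Aldh1b1 (141 CPM, next 61.6), Gucy2c (10.5, next 4.48), Shc2 (3.08, next 1.31), Bmper (2.57, next 0.758), Lrtm2 (1.37, next 0.19) and Cldn4 (0.428, next 0.157).

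TBT 5, the shallowest library, was the high library for Cd74 (119 CPM, next 92.3), H2-Aa (58.7, next 36.4), H2-Ab1 (57.0, next 38.1), H2-Eb1 (44.7, next 27.2), Atf3 (4.14, next 1.97) and Ccnb1 (2.14, next 0.514), and the low one for Hhip (2.43, next 5.76).

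TBT 6 was high for Lars2 (701 CPM, next 240) and Epcam (2.59, next 1.15). VEH 1 was high for Cyp2a4 (3.76 CPM, next 2.40), VEH 2 for Mmp12 (1.39, next 0.547), and VEH 3 for Knstrn (0.820, next 0.341) and Mmp7 (0.109, next 0.0379).

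Among the 7 adenomas, adenoma 6 was high for Glul (1670 CPM, next 745) and adenoma 11 for Trem2 (13.0 CPM, next 7.82).

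In the left-out TBT 2, Sis was at 668 CPM and Alpi at 401 CPM, both intestinal genes that were at most 0.326 and 0.0857 CPM in every other library.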

How the results depend on the processing

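The 5-month description gave 712 higher and 197 lower genes, of which 677 and 172 were shared with adenoma over TBT liver. With plain library totals the lower genes were 117 (104 shared), and the cause was not tested. By construction, with no minimum ratio there were 1237 higher and 893 lower (1061 and 656 shared), and with a 4-fold minimum 202 and 52 (194 and 48 shared). A pseudocount of 2 CPM left 367 higher (355 shared). Counting TBT 2 among the typical livers gave 551 higher and 196 lower, and thinning to the smallest total 583 and 169. Leaving out 1 library at a time gave 676 to 1012 higher and 194 to 263 lower, both highest without VEH 4, and shared counts of 643 to 924 and 166 to 211. It gave 2867 to 3394 higher and 2438 to 3041 lower for adenoma over TBT liver, 3509 to 3871 and 3062 to 3494 for adenoma over VEH liver, and 0.472 to 0.869 for the p of depth. Fewer libraries make the no-overlap rule easier to meet, so the 5-month counts with a library left out are not like for like with 712 and 197. In these settings 0 results reversed. Over all the 5-month settings, 190 log2 ratios of named genes moved by at least the gene's standard deviation among the typical livers. The other 1826 moved by less.

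Whether the replicate numbers pair the samples at 10 months was not settled. The 6 same-numbered pairs of libraries had correlations of -0.12 to 0.165, and 1 was over 0.1. Pairs with different numbers were not set beside them, so these values cannot show that the numbers carry no pairing. Adenomas and TBT livers share no number, so the replicate block compares them only through VEH livers. With the replicate block adenoma over TBT liver gave 33 higher and 30 lower genes, adenoma over VEH liver 2449 and 1910, and the shared counts were 23 and 20. Among named genes the block moved 69 adenoma results across the threshold, and the other settings moved 28, in 10 genes. Moxd1 (adjusted p = 0.294) and Slc7a11 (adjusted p = 0.0564) missed it under limma-voom, Cyp1a2 missed it with no filter (0.0563) and with 2 groups in the fit (0.0853), and Ntrk2 passed it with 2 groups (0.0310). Oat and Gldn passed it under DESeq2 (0.0415 and 0.0409) and, with Glul and Tbx3, under limma-voom (0.0101 to 0.0124). The causes were not tested. Low genes are limited by depth, above all in TBT 4 and TBT 5. The 5-month differences carry no test.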
